A study of Mus musculus with 16 samples.

Results

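The genes described here code for contractile proteins and a calcium pump of skeletal muscle, and for muscle isoforms that a fetus uses first. They are Acta1, Myh3, Myh8, Mybpc2, Tnnt3, Tnni2, Tnnc2, Atp2a1 and Mylpf. Their probe sets were taken wherever the annotation of the array gave exactly 1 gene symbol and that symbol was one of the 9, which left 11 of the 45037 probe sets tested. Tnni2 had 3 probe sets and each of the other 8 genes had 1. RNA came from the ascending aorta, or from an aortic valve specimen of cusp, annulus and root together, of mice aged 30 days that carried both working copies of the elastin gene (Eln+/+) or 1 copy (Eln+/-). The 16 Affymetrix mouse expression arrays formed 4 groups of 4, by tissue and genotype, and each array held 1 specimen without pooling. The labels used here give no strain, no sex and no other allele or agent, and leave unsaid whether equal replicate numbers mean that 1 mouse gave both tissues.

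Striated muscle shortens when myosin thick filaments pull on actin thin filaments, and most parts of this machine exist as separate genes for fast skeletal fibres, slow fibres and the heart. Developing skeletal muscle runs on embryonic and perinatal myosins before the adult myosins replace them. In rodents the skeletal α-actin gene Acta1 is also used by the developing heart and again by a heart under load, so its product is not specific to skeletal muscle. Smooth muscle, the main contractile tissue of the aorta, uses actin, myosin and regulatory genes of its own.

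Each deposited value is a signal divided by the median signal of its probe set over all 16 arrays, or by what appears to be a floor where that median was lower, and all values below are log2 of that ratio. A value of 0 is the middle of the 16 arrays for 10 of the 11 probe sets. For Tnni2 1438608_at the median ratio was 0.797, so that 0 is the floor and lies above the middle. Otherwise how strongly a gene was expressed is not recorded. Differences were tested with limma across all 45037 probe sets, and p-values were adjusted with the Benjamini-Hochberg method over all of them with a threshold of 0.05. Because these are bulk specimens, fewer cells of a type and less RNA per cell cannot be told apart.

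Facts of the whole series touched these genes as follows. The mean of 24 heart muscle genes lay between -3.12 and -0.77 on the 8 aorta arrays and between 0.43 and 2.05 on the 8 valve arrays. Aorta Eln+/+ replicate 2 and aorta Eln+/- replicate 3 stood apart among the aortas, at -0.84 and -0.77, against -3.12 to -2.48 on the other 6. Eln itself (1420854_at) was -1.27 ± 0.34 (SE, n = 4 and 4) in the Eln+/- valve relative to the Eln+/+ valve and -0.42 ± 0.34 in the aorta. Neither passed the threshold in limma (adjusted p = 0.395 and 0.900). The other Eln probe set, 1420855_at, shifted less. It was -0.57 to 0.10 in Eln+/+ valves and -1.39 to -0.23 in Eln+/- valves, and 0.08 to 0.27 and -0.21 to 0.04 in the aortas. The level of Xist minus the mean of the Y-linked genes was -11.0 to -10.6 on 6 arrays, all Eln+/+, and 0.27 to 0.84 on the other 10, which were the 8 Eln+/- arrays and 2 Eln+/+ arrays. On those 6 the Xist probe set was at 0.01, the smallest ratio in the files, so that the low values are bounds. Genotype and this sex-linked signal are therefore largely confounded, and their parts in a genotype difference cannot be told apart.

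The results turn on Acta1, which codes for skeletal α-actin, and Mybpc2, which codes for fast skeletal myosin binding protein C. Their upstream sequences are shown because these genes alone among the 9 varied widely between arrays. Each run below is the 250 bases before the transcription start in RefSeq on build GRCm38.p6, read 5′ to 3′ on the strand of the gene, which is the minus strand for both. Acta1 lies at chr8:123894776-123895025 and Mybpc2 at chr7:44524670-44524919. Capitals mark matches to TATAAA, to the MCAT motif CATTCC (either strand) or to a CArG box.
Acta1 promoter: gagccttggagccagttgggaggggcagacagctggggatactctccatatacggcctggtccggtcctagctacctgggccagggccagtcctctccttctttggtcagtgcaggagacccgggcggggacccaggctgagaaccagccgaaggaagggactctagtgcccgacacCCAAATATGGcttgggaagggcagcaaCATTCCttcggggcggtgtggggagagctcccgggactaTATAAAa
Mybpc2 promoter: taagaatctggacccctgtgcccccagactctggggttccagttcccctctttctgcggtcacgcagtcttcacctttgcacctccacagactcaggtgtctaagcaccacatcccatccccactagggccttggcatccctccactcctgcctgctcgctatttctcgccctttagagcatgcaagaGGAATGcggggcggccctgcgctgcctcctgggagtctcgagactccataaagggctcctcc

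The 250 bases of Acta1 held a CArG box, the serum response factor motif, at 73 to 64 bases before the start. They also held CATTCC at 46 to 41 bases and TATAAA at 7 to 2 bases before the start. The Mybpc2 window held CATTCC on the opposite strand at 62 to 57 bases before the start and neither of the other capitalised motifs. RefSeq gave a promoter for 7 of the 9 genes, and both strands were searched. A CArG box was found in 1 of these 7 and in 1.47% of all 32851 promoters, a MEF2 site in 1 (Myh8) against 2.92%, and CATTCC in 2 against 12.6%. TATAAA was found in 3 against 12.4%, and the E-box CANNTG in all 7 against 66.2%. The MEF2 match of Myh8 overlapped its TATAAA match, and each match describes letters in the window only.

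Acta1 had the widest spread of the set. In the aorta its log2 ratios were -1.28, -0.35, -0.50 and -0.78 in Eln+/+ and -0.97, -0.22, 0.64 and -0.56 in Eln+/-. In the valve they were -0.54, 1.37, 0.19 and 1.60 in Eln+/+ and 0.54, 0.85, 3.17 and 2.55 in Eln+/-. Every Eln+/- valve was above 0, the Eln+/+ valves spanned 0, and 7 of the 8 aortas were below it, the exception being aorta Eln+/- replicate 3. From the lowest array to the highest the ratio changed 22.0-fold.

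Mybpc2 was spread over the arrays in a similar way. Its aorta values were -0.55, -0.46, -0.93 and -0.55 in Eln+/+ and -0.35, -0.43, 0.36 and -0.71 in Eln+/-. Its valve values were 0.45, 0.48, -0.96 and 1.25 in Eln+/+ and 0.28, 1.19, 2.11 and 2.55 in Eln+/-. The same aorta array, Eln+/- replicate 3, was again the only aorta above 0, and valve Eln+/+ replicate 3 lay at the low end of the aortas. The range from lowest to highest was 11.5-fold. Acta1 and Mybpc2 had SDs over the 16 arrays of 1.28 and 1.07, and 1.81% of all probe sets had an SD above 1.

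The other 7 genes moved little. Their 9 probe sets stayed between -0.68 and 1.08, with SDs of 0.16 to 0.44, where the median SD of all probe sets was 0.314. Since the files keep no level, a small spread does not say whether these genes were expressed.

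**Figure D1:**
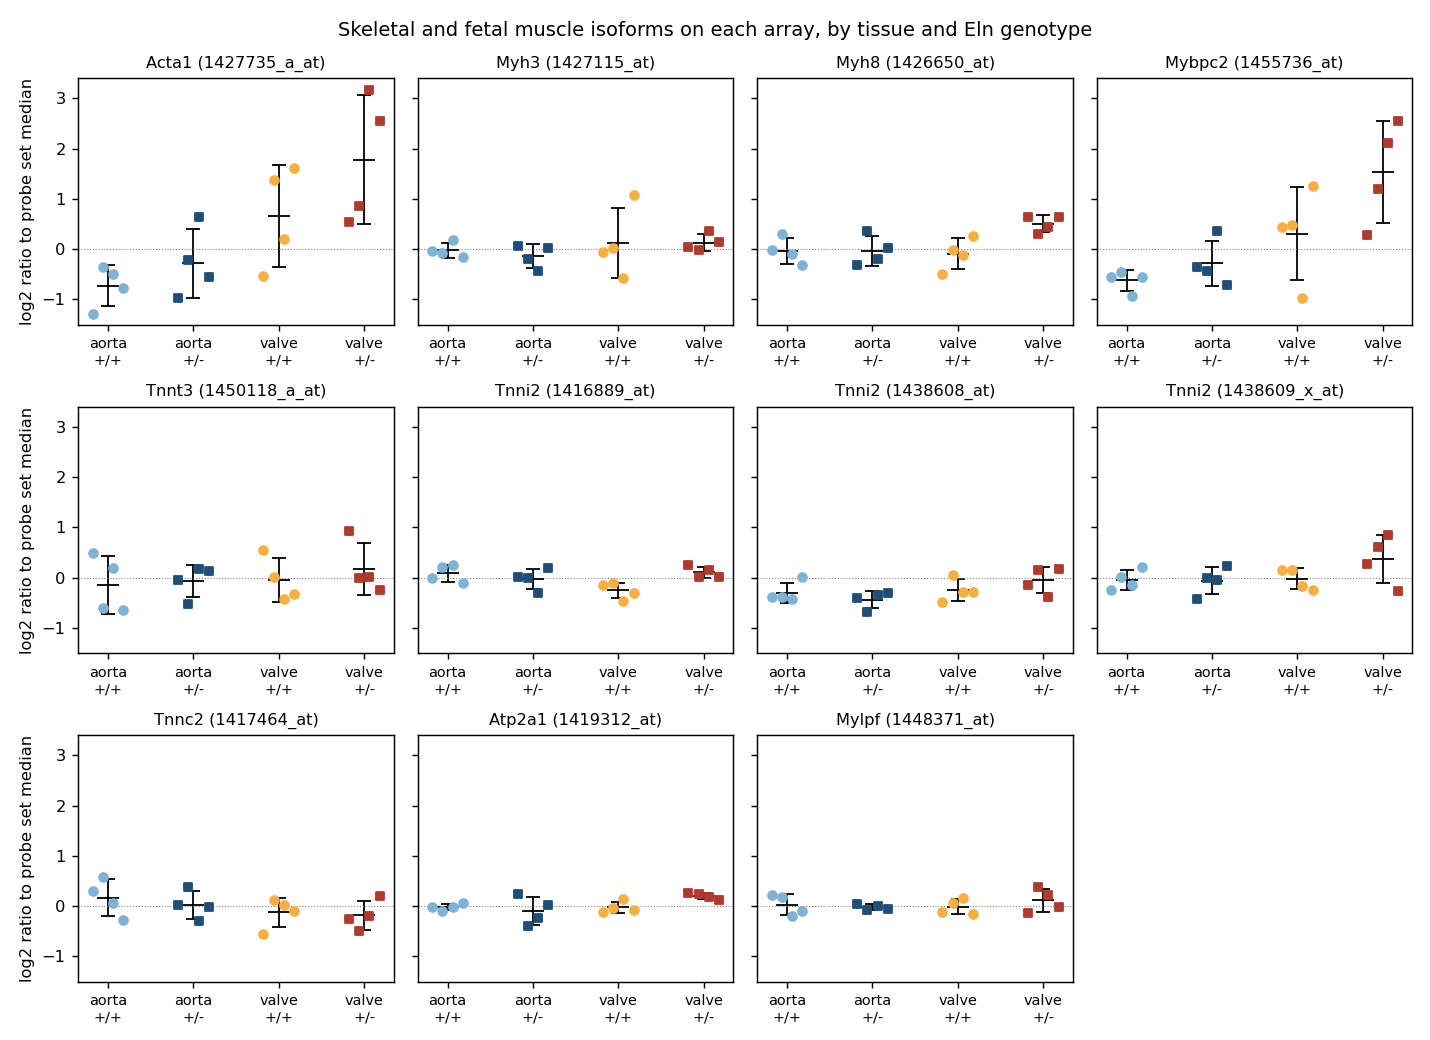
Log2 ratio (y axis) of the 11 probe sets of the 9 genes on each of the 16 arrays, by tissue and genotype; points are arrays, and black marks are the mean and SD of 4 arrays. Acta1 and Mybpc2 reach 3.17 and 2.55 in Eln+/- valves, while the other 9 probe sets stay between -0.68 and 1.08.

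Among the myosin heavy chains, Myh8, the perinatal chain, was -0.02, 0.30, -0.10 and -0.32 in Eln+/+ aorta and -0.33, 0.37, -0.20 and 0.02 in Eln+/- aorta. It was -0.49, -0.02, -0.13 and 0.26 in Eln+/+ valve and 0.65, 0.29, 0.44 and 0.64 in Eln+/- valve. All 4 Eln+/- valves lay above all 4 Eln+/+ valves, and the aortas of both genotypes overlapped with the Eln+/- valves. Myh3, the embryonic chain, stayed between -0.44 and 0.19 in the aortas and between -0.03 and 0.36 in the Eln+/- valves. Its highest and lowest values, 1.08 and -0.58, were both in Eln+/+ valves (replicates 4 and 3). Mylpf, the regulatory light chain of fast fibres, had the smallest spread of the set, with values of -0.20 to 0.38.

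The fast troponin genes form the calcium switch of the thin filament. Tnnt3, the subunit that binds tropomyosin, ranged from -0.65 to 0.93, and its 4 groups overlapped. Tnnc2, the calcium binding subunit, ranged from -0.55 to 0.58, and its group means ran from 0.17 in Eln+/+ aorta to -0.19 in Eln+/- valve. Tnni2, the inhibitory subunit, was read by 3 probe sets that did not move alike. Probe set 1416889_at was -0.15, -0.11, -0.46 and -0.31 in Eln+/+ valve and 0.24, 0.01, 0.15 and 0.01 in Eln+/- valve, so these groups did not overlap. For 1438609_x_at the Eln+/+ valves were 0.15, 0.15, -0.16 and -0.25 and the Eln+/- valves 0.26, 0.60, 0.85 and -0.26. These groups overlapped, as did those of 1438608_at, at -0.48 to 0.05 and -0.38 to 0.17. The suffix x marks a probe set that may bind transcripts of other genes. Atp2a1, the calcium pump of fast fibres, was -0.41 to 0.23 in the aortas, -0.11 to 0.13 in Eln+/+ valves and 0.13 to 0.26 in Eln+/- valves, where its spread was smallest.

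In Eln+/- mice, Acta1 and Mybpc2 rose in the valve relative to the aorta. Acta1 was higher by 2.06 ± 0.57 (SE, n = 4 and 4; 95% interval 0.84 to 3.27), a 4.16-fold difference, with an adjusted p of 0.0450 in limma. Mybpc2 was higher by 1.82 ± 0.46 (95% interval 0.84 to 2.80), 3.53-fold, with an adjusted p of 0.0297. For both genes the groups overlapped through 1 aorta, Eln+/- replicate 3, which also carried the most heart muscle signal of the aortas. Thus 2 of the 11 probe sets passed the threshold, and 5.81% of all probe sets did. The groups of 0 of the 11 were apart (11% of all probe sets).

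The other 9 probe sets did not pass. Myh8 differed by 0.54 ± 0.19 (adjusted p = 0.113 in limma) and Atp2a1 by 0.30 ± 0.13 (adjusted p = 0.239). The 3 Tnni2 probe sets differed by 0.13 to 0.43 and Tnnc2 by -0.21. The difference was above 0 in 10 of the 11, against 47.3% of all probe sets, and the median was 0.30, against -0.02 over all probe sets.

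Both calls stood near the threshold. With only the groups compared in the fit both were lost (adjusted p = 0.0974 for Acta1 and 0.0629 for Mybpc2 in limma). Acta1 was also lost with quantile normalization (adjusted p = 0.0714) and with the sex-linked signal as a covariate (adjusted p = 0.0535). Acta1 lost its call in 10 of the 16 fits that left out 1 array, with values of 1.59 to 2.47 and adjusted p of 0.0276 to 0.156 in limma. Those were the fits without any 1 of the 4 Eln+/+ aortas, Eln+/- aorta 1, 2 or 4, Eln+/+ valve 3, or Eln+/- valve 3 or 4. Mybpc2 lost its call in 4 of the 16, without Eln+/- aorta 1 or 4 or Eln+/- valve 3 or 4, with values of 1.48 to 2.24 over all 16 and adjusted p of 0.00959 to 0.103. With the 2 aortas of high heart muscle signal left out, Acta1 was at 2.37 (adjusted p = 0.0525) and Mybpc2 at 2.03 (adjusted p = 0.0438).

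In Eln+/+ mice 0 of the 11 probe sets passed the same comparison in limma, where 0.946% of all probe sets did. At an unadjusted p under 0.05 there were 2 of the 11 (18.2%), Acta1 and Tnni2 1416889_at, against 11.8% of all probe sets. Acta1 was 1.38 ± 0.57 higher in the valve (95% interval 0.17 to 2.60; adjusted p = 0.352) and Mybpc2 0.93 ± 0.46 (95% interval -0.05 to 1.91; adjusted p = 0.450). The Tnni2 probe set 1416889_at was at -0.34 ± 0.14 and its valves all lay below its aortas (adjusted p = 0.331), while the other 2 Tnni2 probe sets were at 0.05 and 0.02. It was the only one of the 11 with groups apart (7.68% of all probe sets). The difference was above 0 in 6 of the 11, against 41.7% of all probe sets, and the median was 0.02, against -0.05 over all probe sets.

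In the aorta, genotype made no difference that passed for any of the 11 probe sets in limma, nor for any other probe set tested (0%). At an unadjusted p under 0.05 there were 0 of the 11 and 5.51% of all probe sets. Acta1 was 0.45 ± 0.57 higher in Eln+/- (adjusted p = 0.937) and Mybpc2 0.34 ± 0.46 (adjusted p = 0.943), and the remaining 9 lay between -0.14 and 0.07. The groups of 0 of the 11 were apart (2.84% of all probe sets), and 3 of the 11 were above 0 (46.8% of all). The median was -0.04, against -0.02 over all probe sets. On aorta Eln+/- replicate 3, 1 of the 2 aortas of high heart muscle signal, Acta1 was 0.64 and Mybpc2 0.36. The other 3 Eln+/- aortas lay between -0.97 and -0.22 for Acta1 and between -0.71 and -0.35 for Mybpc2. On the second aorta of high heart muscle signal, Eln+/+ replicate 2, Acta1 was -0.35 and Mybpc2 -0.46. These were the highest of the Eln+/+ aortas but below 0. Without Eln+/- replicate 3 the genotype differences were 0.14 for Acta1 and 0.13 for Mybpc2. The source of the signal on these arrays was not tested.

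In the valve, the Eln+/- values were higher for most of the set, but 0 of the 11 probe sets passed in limma, as for all probe sets (0%). At an unadjusted p under 0.05 there were 3 of the 11 (Myh8, Mybpc2 and Tnni2 1416889_at) and 8.6% of all probe sets. Mybpc2 was 1.23 ± 0.46 higher (95% interval 0.25 to 2.21; 2.34-fold; adjusted p = 0.466) and Acta1 1.12 ± 0.57 (95% interval -0.09 to 2.34; 2.18-fold; adjusted p = 0.604). Myh8 was 0.60 ± 0.19 higher (95% interval 0.20 to 1.00; 1.51-fold; adjusted p = 0.423) with its groups apart. The same was true of Tnni2 1416889_at at 0.36 ± 0.14 (adjusted p = 0.471). These 2 of the 11 were the probe sets with groups apart (5.04% of all probe sets). The difference was above 0 in 10 of the 11, against 51.9% of all probe sets, and Tnnc2 at -0.06 was the exception. The median was 0.23, against 0.01 over all probe sets.

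**Figure D2:**
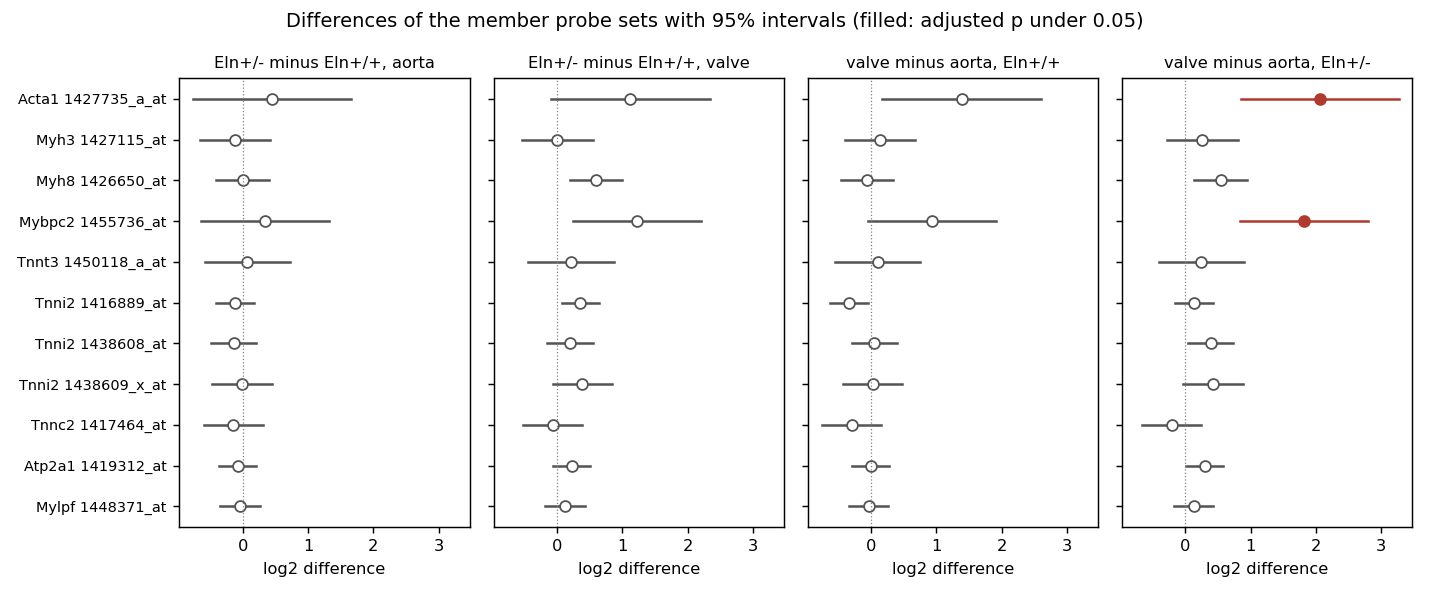
Log2 difference (x axis) for each of the 11 probe sets in the 4 comparisons of 2 groups, with 95% intervals; filled points have an adjusted p under 0.05 in limma. Only Acta1 and Mybpc2, in the comparison of valve with aorta in Eln+/- mice, are filled, and their intervals are the widest.

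Heart muscle genes were read in the same valves. Of 24 such genes 23 were higher in Eln+/- valves, against 55% of all genes, and 0 passed in limma, as for all genes. At an unadjusted p under 0.05 there were 6 of the 24 (25%), against 9.48% of all genes. The mean of the 24 heart muscle genes was 0.79, 0.43, 0.61 and 1.30 in Eln+/+ valves and 1.60, 1.25, 2.05 and 1.38 in Eln+/- valves, so that 1 Eln+/+ valve lay above 1 Eln+/- valve. The mean of 12 smooth muscle genes was -0.62 to 0.26 in Eln+/+ valves and -1.79 to -0.45 in Eln+/- valves. In a fit of the 8 valve arrays with the heart muscle mean as a covariate, the genotype difference of Acta1 was 0.05 (adjusted p = 1.00 in limma), that of Mybpc2 0.43 (adjusted p = 0.992) and that of Myh8 0.43 (adjusted p = 0.975). With Myh6, the adult α-myosin of the heart, as the covariate the differences were 0.63, 0.56 and 0.46. Both covariates themselves differed by genotype. The heart muscle mean averaged 0.78 in Eln+/+ and 1.57 in Eln+/- valves, and Myh6 0.77 and 1.39. These fits therefore cannot tell heart muscle signal and genotype apart. In the fit of all 16 arrays with the sex-linked signal (Xist less the Y-linked genes) as covariate, the differences of Acta1, Mybpc2 and Myh8 were 0.79, 1.10 and 0.70.

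**Figure D3:**
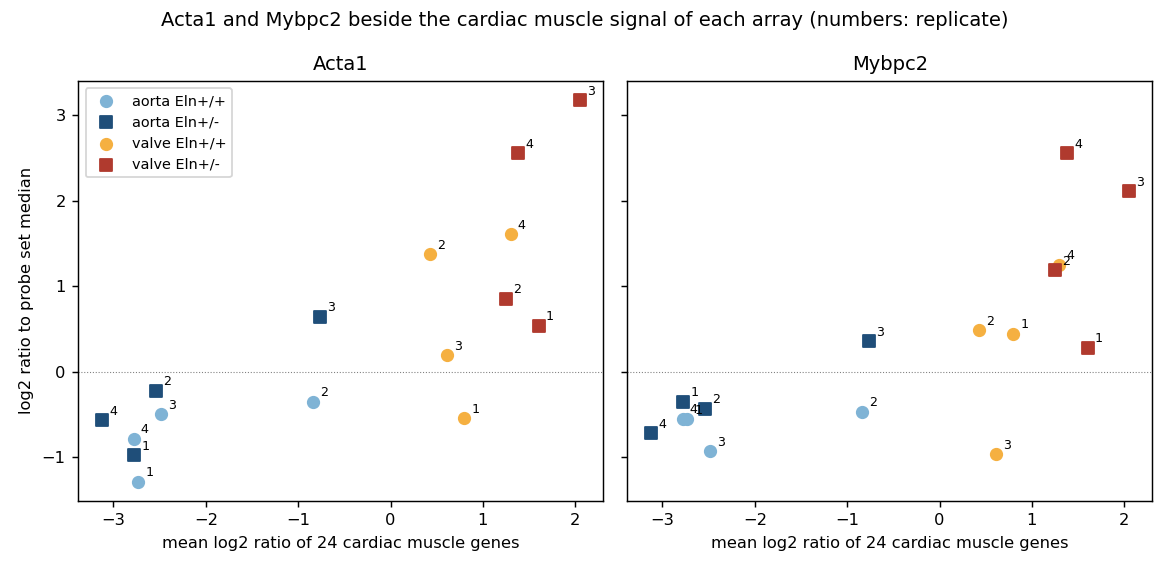
Log2 ratio of Acta1 and of Mybpc2 (y axes) against the mean log2 ratio of 24 heart muscle genes on the same array (x axis); each point is 1 of the 16 arrays, by tissue and genotype. The valves lie at 0.43 to 2.05 on the x axis, and at the top valve, Eln+/- replicate 3, Acta1 is 3.17 and Mybpc2 2.11.

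The order of the valves was not the same for Acta1 as for the heart muscle mean. Eln+/+ valve 2 had the lowest heart muscle mean of the valves, 0.43, and an Acta1 value of 1.37. Eln+/- valve 1 had the second highest, 1.60, and an Acta1 value of 0.54. On the valve with the highest mean, Acta1 was also highest.

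The genotype difference in the valve was compared with that in the aorta as an interaction. It was above 0 for 11 of the 11 probe sets, with values of 0.08 to 0.89, against 53% of all probe sets, and 0 passed in limma, as for all probe sets (0%). The smallest adjusted p was 0.631. At an unadjusted p under 0.05 there were 2 of the 11, Tnni2 1416889_at and Myh8, and 7.72% of all probe sets. A difference between the tissues in the effect of genotype was thus not shown for any of the genes. The interaction, the genotype comparisons and the tissue comparisons are built from the same 4 groups, so their values are not independent of each other.

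Each gene has a relative that the heart uses in its place, and most of these rose in the valve. The 9 were Actc1, Myh6, Myh7, Mybpc3, Tnnt2, Tnni3, Tnnc1, Atp2a2 and Myl2. In Eln+/+ mice 6 of the 9 rose in limma (1.19% of all genes), and the differences of the 9 were 2.01 to 4.45. In Eln+/- mice 9 of the 9 rose (4.41% of all genes), with differences of 3.12 to 5.51 and a median of 4.28. Each was read by its probe set of highest SD, and for Atp2a2 the probe sets did not move alike. Aortas and valves were apart at 1452363_a_at, which was the one used, and at 1416551_at and 1437797_at. They overlapped at 1427250_at (-0.75 to 0.22 in aortas, -0.28 to 0.03 in valves), at 1427251_at and at 1443551_at. Between genotypes in the valve all 9 were above 0 (55% of all genes) with a median of 0.75, and 0 passed. At an unadjusted p under 0.05 there were 2 of these 9 and 9.48% of all genes.

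Cardiac α-actin, Actc1, shows the contrast with Acta1 on single arrays. Actc1 was -3.79, -0.37, -3.72 and -3.73 in Eln+/+ aorta and 0.52, 0.32, 0.29 and 0.71 in Eln+/+ valve. It was -5.21, -3.06, -0.70 and -4.59 in Eln+/- aorta and 0.90, 0.66, 1.21 and 0.99 in Eln+/- valve. Actc1 thus separated valve from aorta on every array and varied little between valves, while Acta1 varied by 2.15 among Eln+/+ valves and by 2.64 among Eln+/- valves.

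The valve to aorta difference of each gene was set against that of its heart relative, a comparison added after the data were seen. The gene minus its relative was lower in the valve than in the aorta for 9 of 9 pairs in both genotypes. The relatives had already been seen to rise on these same arrays, so this direction and the test below largely restate that rise. They are no separate result about the 9 genes. In an exact two-sided permutation test over arrays (n = 4 and 4, smallest possible p 0.0286), adjusted over the 18 tests, 7 of 9 pairs passed in Eln+/+ mice and 8 of 9 in Eln+/- mice, each at an adjusted p of 0.0343. Acta1 against Actc1 passed in neither genotype, at -1.98 and -2.27 (adjusted p = 0.0857 for both by the exact permutation test). Mybpc2 against Mybpc3 was at -2.41 in Eln+/+ (adjusted p = 0.0857, exact permutation test) and at -2.46 in Eln+/-, where it passed. The contrasts ranged from -4.32 to -1.98 in Eln+/+ mice and from -5.32 to -2.27 in Eln+/- mice. The -5.32 is that of Tnnc2 against Tnnc1, and Tnnc1 was at the smallest ratio in the files, 0.01, on aorta Eln+/- replicate 4, so its exact size is not determined.

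**Figure D4:**
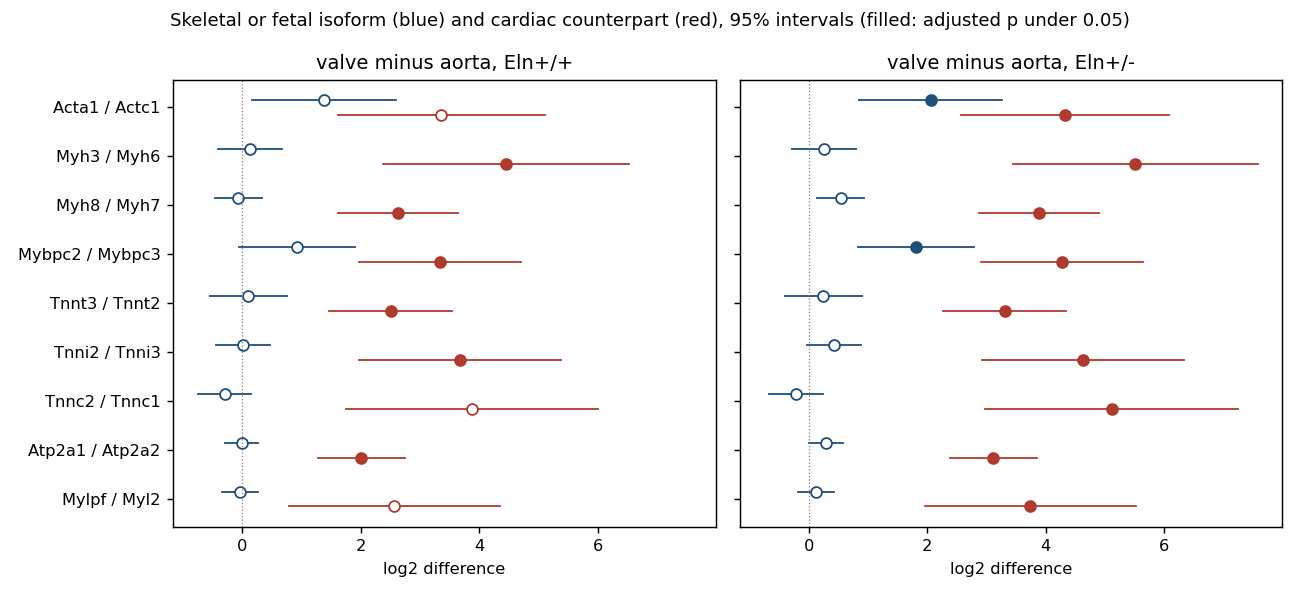
Valve minus aorta log2 difference (x axis) of each of the 9 genes and of its heart relative, in Eln+/+ and in Eln+/- mice, with 95% intervals; filled points have an adjusted p under 0.05 in limma. The heart relatives lie at 2.01 to 5.51, and the 9 genes at -0.29 to 2.06.

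Other genes of skeletal muscle were read from a list of 40, of which 38 were measured, with 1 probe set per gene. In the valve relative to the aorta 8 rose and 0 fell in Eln+/+ mice, where 1.19% of all genes rose, and 16 rose and 0 fell in Eln+/- mice, where 4.41% did. Sln (1420884_at), a regulator of the calcium pump, rose by 6.36 ± 0.66 in Eln+/+ and 6.45 ± 0.66 in Eln+/-. The other Sln probe set, 1420883_at, moved much less and was -0.39 to 0.01 in the aortas. That probe set was 0.18, 0.05, 0.33 and 1.63 in Eln+/+ valves and 2.81, 0.31, 1.70 and -0.34 in Eln+/- valves. The essential light chain gene Myl1 rose by 3.74 ± 0.60 and 4.70 ± 0.60, and the muscle phosphoglycerate mutase gene Pgam2 by 3.48 ± 0.53 and 4.56 ± 0.53. Actn2, which codes for an α-actinin of the Z-disc, rose by 2.48 ± 0.45 and 4.12 ± 0.45, and Eno3, β-enolase, by 2.35 ± 0.44 and 3.76 ± 0.44. Trdn, the junctional protein triadin, rose by 4.36 ± 0.82 in Eln+/+ and 5.70 ± 0.82 in Eln+/-. In Eln+/- mice the muscle creatine kinase gene Ckm (1417614_at) rose by 2.53 ± 0.32. The other Ckm probe set, 1444643_at, was -0.35 to 0.30 in Eln+/- aortas and -0.02 to 1.12 in Eln+/- valves, which overlapped. Sln, Pgam2, Actn2, Eno3, Trdn and Ckm are also expressed by heart muscle, atrial muscle in the case of Sln. Myl1 was 1.35, 0.64, 0.84 and 2.08 in Eln+/+ valves and 2.52, 2.47, 2.69 and 0.64 in Eln+/- valves. Myl4 (1422580_at), from the heart muscle list and singled out after its values were seen, ran close to this. It was 1.66, 0.79, 1.65 and 2.72 in Eln+/+ valves and 2.81, 2.57, 3.13 and 0.82 in Eln+/- valves. The source of the Myl1 signal was not tested.

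None of the 38 passed between genotypes in limma. In the valve 32 of the 38 were higher in Eln+/- (55% of all genes), with a median of 0.33, and 7 (18.4%) had an unadjusted p under 0.05, against 9.48% of all genes. The lowest p-values there were those of Ckm at 1.11 ± 0.32 (adjusted p = 0.419), Eno3 at 1.34 ± 0.44 (adjusted p = 0.424), Pygm at 0.86 ± 0.30 (adjusted p = 0.434) and Tnnt1 at 0.57 ± 0.21 (adjusted p = 0.466). In the aorta 13 were higher and 25 lower, where of all 18193 genes 8606 were higher and 9587 lower. There 0 of the 38 had an unadjusted p under 0.05, against 5.68% of all genes. Tnnt1 at 0.42, Mylk2 at -0.32, Neb at 0.34 and Myh1 at 1.31 had the lowest p-values (adjusted p = 0.885 to 0.896).

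Markers that define adult fast fibres were mostly flat. Of 9 such genes (Myh1, Myh2, Myh4, Actn3, Pvalb, Casq1, Ryr1, Cacna1s and Myl1), 3 had an SD above 1 over the arrays. Myl1 rose in the valve in both genotypes and Pvalb in Eln+/- mice. Pvalb, a calcium buffer of fast fibres singled out after its values were seen, was 1.99, -0.08, -0.04 and -0.08 in Eln+/+ valves and 2.05, 2.77, 2.03 and 0.06 in Eln+/- valves, against -0.75 to 0.49 in the aortas. It was therefore high on 4 valves and at the level of the aortas on the other 4, among them Eln+/- valve 4, where Mybpc2 was highest at 2.55 and Acta1 was 2.55. Its difference in Eln+/- mice was 1.88 ± 0.53 (adjusted p = 0.0462 in limma). The fast myosins Myh2 and Myh4, Actn3, Casq1, Ryr1 and Cacna1s passed in no comparison, and their valve to aorta differences were between -0.32 and 0.46.

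**Figure D5:**
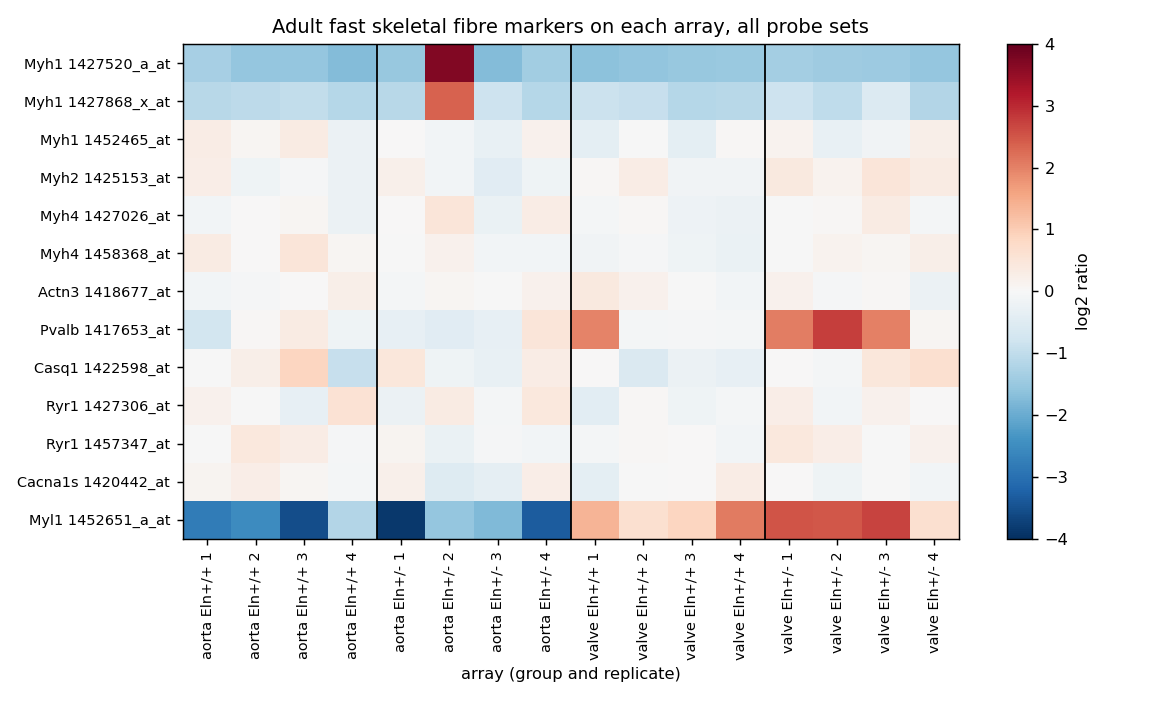
Log2 ratio (colour, -4 to 4) of 13 probe sets of the 9 fast fibre markers (rows) on the 16 arrays (columns). Myl1 is higher in the valves than in the aortas, Pvalb is high on 4 valves, and 2 of the 3 Myh1 probe sets are high on aorta Eln+/- replicate 2 only.

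Myh1, a fast myosin heavy chain also singled out after its values were seen, was high on 1 array. Its probe sets 1427520_a_at and 1427868_x_at were 3.69 and 2.37 on aorta Eln+/- replicate 2, and between -1.75 and -0.54 on the other 15. Their median ratios were 0.352 and 0.489, so that the other 15 arrays lie below the divisor, which was then not the median. The third, 1452465_at, was -0.12 on that array. Acta1 was -0.22 and Mybpc2 -0.43 there, and the mean of the T cell and thymocyte genes was 1.55, the highest of the aortas.

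Of 17 myogenic regulators and satellite cell genes 16 were measured, and none of them rose in limma. Chrna1, a subunit of the acetylcholine receptor of muscle, was the 1 that fell. It fell by 1.18 on the log2 scale in the Eln+/- valve relative to the Eln+/- aorta (SE 0.20, adjusted p = 0.00273 in limma). Of all 18193 genes, 483 fell and 802 rose in that comparison. Myod1 (1418420_at), which specifies skeletal muscle, was at 0.31 ± 0.12 in that comparison (adjusted p = 0.168 in limma). Between genotypes in the valve it was at 0.27 ± 0.12 (adjusted p = 0.570 in limma). The other Myod1 probe set, 1447675_x_at, overlapped between these groups. Its values were -1.69 to -1.38 in Eln+/- aortas, -1.73 to -1.36 in Eln+/- valves and -1.64 to -1.26 in Eln+/+ valves. The mean of the 16 genes stayed between -0.29 and 0.02 on all arrays.

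Genes whose pattern was most like that of the 3 most variable members were found by the root mean square difference of log2 ratio over the 16 arrays, which share all their libraries between genes. Nearest to Acta1 were Nppb (0.551), Yipf7 (0.614) and Ankrd23 (0.637). Nearest to Mybpc2 were Ankrd23 (0.469), Sez6l2 (0.488) and Tcfl5 (0.493). Sez6l2 was read here by 1434641_x_at, at 0.67 to 2.39 in Eln+/- valves, while its probe set 1423983_at was 0.09 to 0.23 there. Ankrd23 codes for a muscle ankyrin repeat protein. Nppb, which codes for B-type natriuretic peptide, a hormone of the heart, was -0.22, 0.81, 0.07 and 1.30 in Eln+/+ valves and 0.89, 2.04, 2.48 and 2.51 in Eln+/- valves. As for Acta1, Eln+/+ valve 4 and Eln+/- valves 3 and 4 were the highest of their genotypes. For Tnnt3 the nearest were Zmat4 (0.290), Rbmx2 (0.300) and Adamts15 (0.302), which is a likeness of small values, since the SD of Tnnt3 itself was 0.44.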

How the data were processed

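RNA of each specimen was amplified and hybridised to 1 array, per the labels. The authors normalised with RMA, per the submitters' processing notes. The deposited values are linear ratios; the division by a probe set's median, or by a floor where the median was lower, was read from the values. The median was 1 within 1e-06 for 39780 probe sets and below 1 for 5257, among them Tnni2 1438608_at at 0.797, and low probe sets may be compressed. The genome build is not given in the sources used here.

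From these ratios, log2 values were fitted with limma 3.58.1 in R 4.3.3 (lmFit, eBayes, two-sided) as 4 group means over 16 arrays, with 12 residual degrees of freedom, after 64 control probe sets were removed. The number of arrays limits the precision. Each limma p-value sets a difference against the spread between specimens, estimated over all 4 groups. The fit was tested on simulated data. Names came from the platform annotation; 932 probe sets with several symbols and 9160 with none stayed unnamed. A gene shown by 1 probe set is shown by the one of highest SD. Named are the 9 genes, their heart relatives, the 3 nearest genes of the 3 most variable, and from the skeletal muscle and myogenic lists those that passed, up to 6 per comparison by p, or up to 4 of lowest p. Members and lists were chosen with earlier results of these data known. Same-numbered arrays did not deviate together (0 of 4 pairs over 0.1 in each of 4 pairings), so numbers were not used as a block. The highest correlation between arrays, 0.613, marked no library as deposited more than once.

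Alternatives were median centring, quantile normalization, log2(value + 0.1), leaving out probe sets with a median below 1, robust eBayes, array weights (statmod 1.5.0), only the groups compared, the replicate block, covariates for sex-linked and heart muscle genes, the mean over probe sets, and each array left out. The fit without the 2 aortas of high heart muscle signal was chosen after seeing the data.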

Additional observations from a re-analysis of the deposited data

Results flagged for a closer look

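In 44 sets of 4 arrays, 1 per probe set and group, 1 array lay far from the other 3. For the Tnni2 probe set 1438608_at, aorta Eln+/+ replicate 4 was at 0.0016, while the other 3 Eln+/+ aortas were between -0.42 and -0.39. Its gap was 0.928 of the range of the group (Dixon's ratio), above the 95% critical value for 4 values. Chance alone marks about 1 in 20 such groups.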

How the results depend on the processing

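Of the counts of called probe sets among the 11, the 0 found in limma for both genotype comparisons, for valve against aorta in Eln+/+ mice and for the interaction was also 0 under every alternative run. The 2 called for valve against aorta in Eln+/- mice (Acta1 and Mybpc2) became 1 with quantile normalization, 0 with only the groups compared, 1 with the sex-linked covariate and 1 without the 2 aortas of high heart muscle signal, an alternative added after seeing the data. Leaving out 1 array at a time gave 0 to 2. Acta1, at 1.82 and 2.06, was the gene lost with quantile normalization and with the sex-linked covariate. Myh8 was called in that comparison with array weights (0.65; adjusted p = 0.0339) and without Eln+/- aorta 2 (0.68; adjusted p = 0.0396). Over all probe sets, 2615 were called in that comparison, 1602 with only the groups compared, 1638 without the 2 aortas, and 1366 to 3457 with 1 array left out. In Eln+/+ mice the 426 called became 692 with quantile normalization and 173 to 553 with 1 array left out. The replicate block changed no call of the 11 probe sets: for valve against aorta in Eln+/- mice it gave an adjusted p of 0.0156 for Acta1, 0.0320 for Mybpc2 and 0.209 for Myh8, and it moved the calls over all probe sets to 2062 there and to 297 in Eln+/+ mice. Same-numbered arrays correlated in their deviations at -0.146 to 0.0711. No gene minus heart relative contrast changed sides under the alternatives run.

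Values that changed sign belonged to 19 of the 45 differences of single genes. None of these 19 was called, and as reported they were at most 0.245 in size. With median centring, genotype in the aorta became 0.012 for Myh8 and 0.0015 for Tnni2, genotype in the valve -0.0022 for Myh3, and tissue in Eln+/+ 0.026 for Atp2a1. Quantile normalization gave 0.037 for Atp2a1 and 0.015 for Mylpf for tissue in Eln+/+, log2(value + 0.1) gave -0.00075 for Myh3 for genotype in the valve, and array weights gave 0.013 for Atp2a1 for tissue in Eln+/+. The sex-linked covariate gave 0.10 for Myh8 for genotype in the aorta and 0.032 for Tnnc2 for genotype in the valve. In the valve, the heart muscle covariate gave -0.79 for Myh3 and 0.020 for Tnnc2, and Myh6 gave -0.48 for Myh3 and -0.018 for Tnnt3. The mean over probe sets gave -0.089 for Tnni2 for tissue in Eln+/+. Without the 2 aortas, genotype in the aorta was 0.17 for Myh8, -0.16 for Tnnt3, 0.0030 for Tnni2, 0.098 for Tnnc2 and 0.0030 for Mylpf, tissue in Eln+/+ was 0.054 for Myh8, -0.052 for Tnnt3 and 0.017 for Mylpf, and the interaction was -0.16 for Tnnc2. With 1 array left out, genotype in the aorta ranged from -0.19 to 0.025 for Atp2a1, -0.14 to 0.11 for Myh8, -0.12 to 0.021 for Mylpf, -0.11 to 0.11 for Tnni2 and -0.094 to 0.28 for Tnnt3. Tissue in Eln+/+ ranged from -0.060 to 0.023 for Atp2a1, -0.18 to 0.37 for Myh3, -0.18 to 0.072 for Myh8, -0.11 to 0.026 for Mylpf, -0.046 to 0.11 for Tnni2 and -0.094 to 0.31 for Tnnt3. Genotype in the valve ranged from -0.22 to 0.33 for Myh3, -0.20 to 0.042 for Tnnc2 and -0.037 to 0.41 for Tnnt3, the interaction from -0.11 to 0.45 for Myh3, -0.059 to 0.23 for Tnnc2 and -0.11 to 0.34 for Tnnt3, and tissue in Eln+/- from -0.0079 to 0.39 for Tnnt3. The cause of these changes was not tested.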

Other observations

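Chrna1, the muscle acetylcholine receptor subunit that fell in the Eln+/- valve relative to the Eln+/- aorta, also separated the genotypes in the aorta. It was -0.20, 0.36, 0.38 and 0.30 in Eln+/+ aortas and 1.20, 1.33, 0.43 and 1.02 in Eln+/- aortas, so that every Eln+/- aorta lay above every Eln+/+ aorta. The difference was 0.79 ± 0.20 (SE, n = 4 and 4) and did not pass in limma (adjusted p = 0.867). In the valves it was -0.17, -0.08, -0.31 and -0.70 in Eln+/+ and 0.07, -0.31, -0.25 and -0.25 in Eln+/-, and these overlapped. The test of the interaction did not pass (-0.66 ± 0.29; adjusted p = 0.636). Chrna1 was singled out after its values were seen. Of the 16 myogenic and satellite cell genes measured, 12 were lower in Eln+/- aortas than in Eln+/+ aortas, as were 9587 of all 18193 genes. Genotypes were apart in the aorta for 1 gene that was higher, Chrna1, and for 1 that was lower, Myog. Myog was -0.04 to 0.13 in Eln+/+ aortas and -0.38 to -0.11 in Eln+/- aortas. Over all probe sets 2.84% were apart in that comparison.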
